A study of Mus musculus with 2 samples.

Results

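Gasdermin C and Lypd8 transcripts were described in single cells of the mouse intestine. The members are Gsdmc, Gsdmc2, Gsdmc3, Gsdmc4 and Lypd8, chosen by name, and all 5 are among the 31253 genes of the count tables. Dissociated whole intestine of 2 wild-type mice gave 1 droplet 3' library each. For the butyrate library the animal ate chow with 1% butyrate, a short-chain fatty acid that colonocytes use as fuel. For the RA library it had arthritis induced with collagen and ate the standard diet. The labels do not say if arthritis was induced in the butyrate-fed animal as well, and strain and age are not given in the sources used here. Each diet has 1 mouse, which leaves the diets untested against the spread between animals, and every difference below sets 1 mouse against 1 mouse without a p-value.

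Gasdermins are proteins that a protease cuts, after which the freed amino-terminal part assembles into pores in cell membranes. The genes Gsdmc2, Gsdmc3 and Gsdmc4 are known in mouse intestine as genes that the type 2 cytokines interleukin 4 and interleukin 13 switch on in epithelial cells during worm infection, and in human cells the protease caspase-8 cuts gasdermin C. Lypd8 is a lipid-anchored protein of the Ly6 and LYPD family on colon epithelium that is shed into the mucus, binds flagellated bacteria and keeps them away from the surface.

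The 4 gasdermin C genes lie side by side on the minus strand of mouse chromosome 15 (GRCm38), Gsdmc at chr15:63775968-63808759, Gsdmc2 at chr15:63824346-63845177, Gsdmc3 at chr15:63857724-63878558 and Gsdmc4 at chr15:63891264-63912297, a span of 136 kb. Lypd8 lies on the plus strand of chromosome 11 at chr11:58379043-58390728. The first 90 coding bases of the gasdermin C genes, from GENCODE M21, show how close these genes are, with capitals for each base that differs from Gsdmc2:
Gsdmc2: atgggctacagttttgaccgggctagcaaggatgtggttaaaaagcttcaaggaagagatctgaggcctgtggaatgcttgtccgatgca
Gsdmc3: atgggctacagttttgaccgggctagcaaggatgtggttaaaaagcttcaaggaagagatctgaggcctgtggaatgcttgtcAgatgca
Gsdmc4: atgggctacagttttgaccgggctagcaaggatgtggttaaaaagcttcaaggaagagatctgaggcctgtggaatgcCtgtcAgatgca
Gsdmc: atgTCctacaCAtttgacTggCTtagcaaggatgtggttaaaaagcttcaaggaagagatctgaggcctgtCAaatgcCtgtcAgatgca
Over the whole coding sequence Gsdmc2 and Gsdmc3 were 97.1% identical, Gsdmc4 was 93.0% identical to each of them, and Gsdmc stood apart at 82.8% to 83.8%. Reads of a 3' library come from the transcript ends. There, in the last 500 bases of the longest coding transcript of each gene, 18.5% of all 90-base stretches of Gsdmc2 and 18.7% of those of Gsdmc3 also occur in a transcript of another gasdermin C gene or pseudogene, against 10.5% for Gsdmc and none for Gsdmc4 or Lypd8. How UMIs divide among Gsdmc2, Gsdmc3 and Gsdmc4 is therefore less certain than their sum, and both are given.

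RefSeq promoter sequence (GRCm38.p6) was at hand for Gsdmc3 and Lypd8. The 250 bases before each start are shown because these genes mark different cells below, with the letters TATATAAG in capitals:
Gsdmc3, chr15:63878559-63878808, minus strand: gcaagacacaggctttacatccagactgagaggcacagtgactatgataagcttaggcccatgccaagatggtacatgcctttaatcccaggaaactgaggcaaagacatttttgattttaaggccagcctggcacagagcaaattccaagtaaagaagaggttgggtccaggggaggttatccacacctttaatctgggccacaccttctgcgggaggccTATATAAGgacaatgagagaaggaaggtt
Lypd8, chr11:58378782-58379031, plus strand: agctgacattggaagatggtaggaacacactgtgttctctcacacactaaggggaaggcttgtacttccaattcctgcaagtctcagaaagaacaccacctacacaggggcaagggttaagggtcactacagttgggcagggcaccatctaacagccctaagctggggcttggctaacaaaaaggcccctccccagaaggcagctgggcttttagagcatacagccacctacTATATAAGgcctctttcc
Both hold TATATAAG on the coding strand, 29 bases before the start in Gsdmc3 and 18 in Lypd8, counted from the first base of the match. Of 32851 promoter windows of this length 0.642% hold it on the coding strand and 0.935% on either strand. A second Lypd8 start, further downstream, had no match. The motif was chosen after the sequences were seen, and a match or its absence is a description of these letters only.

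Barcodes were kept from 500 UMIs and 250 genes upward if mitochondrial UMIs made up no more than 25%. These were 8247 of 9959 barcodes of the butyrate and 6909 of 10140 of the RA library, with medians of 5141 and 4712 UMIs. The lowest barcode of the butyrate library had 2313 UMIs, while the RA library reaches down to the limit. Epithelial cells were taken as barcodes with at least 1 UMI of the epithelial adhesion gene Epcam. They were split by at least 3 UMIs of Aqp8, a water channel of surface colonocytes (the Aqp8 gate, 579 butyrate and 372 RA cells), by at least 2 UMIs together of Hao2, a peroxisomal oxidase, and Aqp4, another water channel (the Hao2/Aqp4 gate, 217 and 273 cells), by at least 10 of the mucin gene Muc2 (134 and 144), and by at least 2 of the cell cycle genes Mki67 and Top2a together (the dividing gate, 135 and 125). A cell could meet several thresholds, and 1136 butyrate and 961 RA cells met none. Levels are UMIs per 1000000 UMIs of the cell class (CPM), which in a 3' library do not depend on transcript length, and intervals are exact and at 95%. They cover counting error only.

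The epithelium of both libraries had the marker pattern of colon rather than small intestine. The colon markers summed to 1449.8 CPM in the butyrate and 1602 CPM in the RA library, and the markers of small intestinal enterocytes to 8.04 and 9.22 CPM. The goblet markers stood at 55439 and 34039 CPM in the Muc2 gate, and the surface colonocyte markers at 11044 and 9559 CPM in the Aqp8 gate. These sums include Muc2 and Aqp8, the genes that set the gates, so they are high there in part by construction. Not every barcode with an Epcam UMI looked epithelial. Of the cells that met no threshold, 74.5% and 66.7% also held UMIs of Cd79a, Cd3e or Col3a1 at the level used for B cells, T cells and fibroblasts, and in the dividing gate the shares were 65.9% and 41.6%. The dividing gate is thus not a pure set of crypt epithelial cells. Depth and mitochondrial share differed more between gates than between libraries. Cells of the Hao2/Aqp4 gate had medians of 22510 and 24141 UMIs and 8.45% and 8.93% mitochondrial UMIs, against 6084 and 8304 UMIs and 19.3% and 18.4% in the Aqp8 gate. The part of depth and RNA quality in the differences between gates was not tested.

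Gsdmc itself was all but absent. The butyrate library held 1 Gsdmc UMI in 2092 Epcam-positive cells, from the Aqp8 gate, and the RA library 0 in 1694 cells, which allows up to 0.154 CPM. No Epcam-negative cell of either library held one. All further gasdermin C values come from Gsdmc2, Gsdmc3 and Gsdmc4.

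These 3 genes marked the cells of the Hao2/Aqp4 gate, which was chosen without them. Gsdmc4 was the most abundant, with 433 CPM (418 to 449) in the butyrate library and 303 CPM (291 to 315) in the RA library. Gsdmc2 had 294 CPM (282 to 308) in the butyrate library and 151 CPM (143 to 159) in the RA library. Gsdmc3, the least abundant, had 89.7 CPM (82.8 to 97.1) in the butyrate library and 56.1 CPM (51.1 to 61.5) in the RA library. The gate held 93.0% of all UMIs of the 3 genes in the butyrate library and 93.7% in the RA library, from 2.63% and 3.95% of the cells. Its cells were deep, so its part of the UMIs of all genes was larger than its part of the cells. It held 6897625 butyrate and 8285349 RA UMIs of all genes. All Epcam-positive cells held 21653313 and 19422674, and Epcam-negative cells 37626042 and 28525727. In the other gates the summed level was lower, 212 against 129.6 CPM in the Muc2 gate of the butyrate and RA libraries, 176 against 128 CPM in the dividing gate and 147 against 227 CPM in the Aqp8 gate. Epcam-positive cells that met no threshold had 14.6 against 9.50 CPM. With a mitochondrial limit of 10% the lead over the Aqp8 gate was smaller in the butyrate library, at 889 against 399 CPM, and gone in the RA library, at 474 against 473 CPM. That limit left 64 butyrate and 43 RA cells in the Aqp8 gate.

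**Figure D1:**
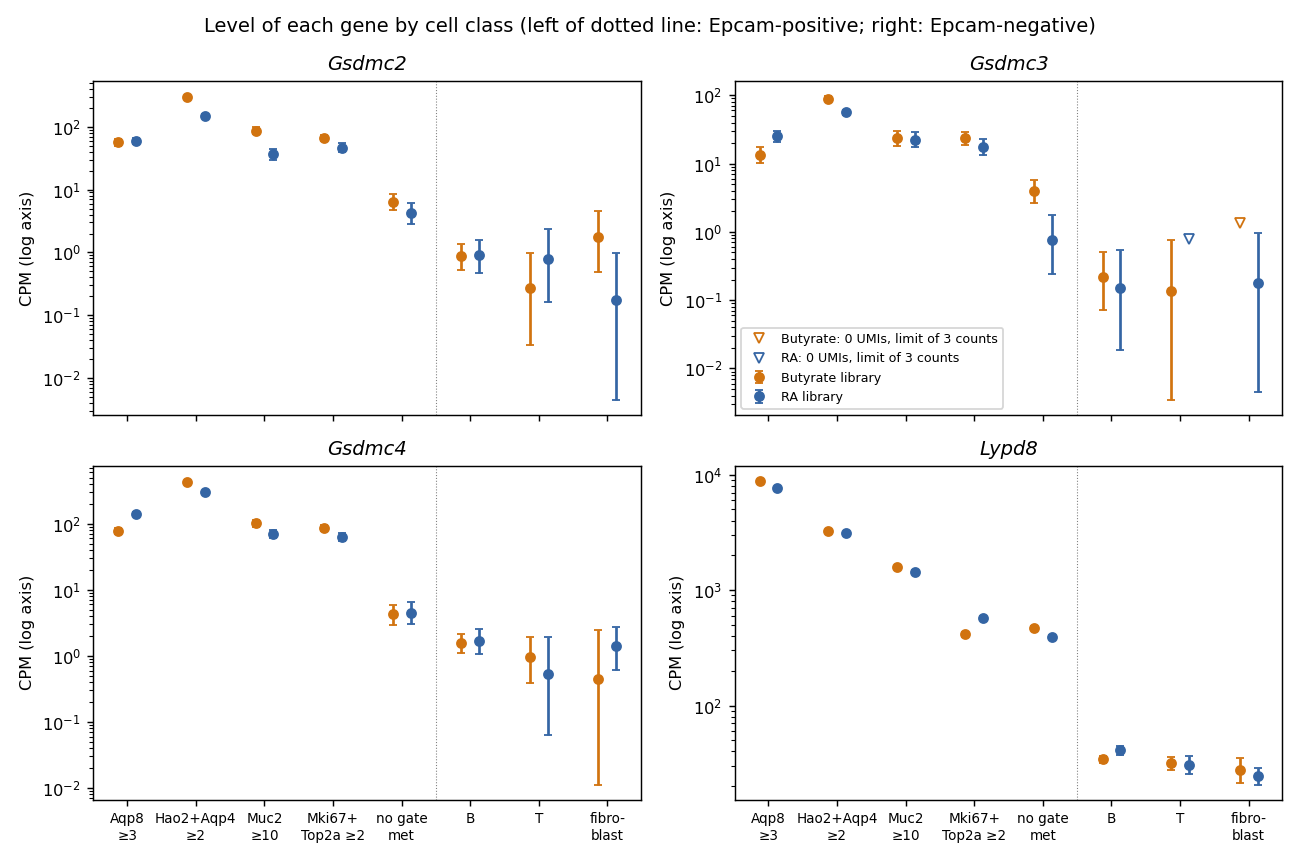
Level of Gsdmc2, Gsdmc3, Gsdmc4 and Lypd8 (vertical axes, CPM, logarithmic) in each cell class (horizontal axes) of the butyrate (orange) and RA (blue) libraries, with exact 95% counting intervals and open triangles at the limit of 3 counts where no UMI was seen. The gasdermin C genes peak in the Hao2/Aqp4 gate, where Gsdmc4 stands at 433 against 303 CPM, and Lypd8 in the Aqp8 gate, at 8774 against 7671 CPM.

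The Hao2/Aqp4 gate also stood above the others cell by cell. In 1 random thinning of each cell to 2000 UMIs, 33.2% of the butyrate and 34.9% of the RA cells of the Hao2/Aqp4 gate held a Gsdmc4 UMI, against 3.97% and 10.1% of the Aqp8 gate and 4.48% and 8.33% of the Muc2 gate. Over 20 thinnings the Gsdmc4 share in the Hao2/Aqp4 gate ran over 34.6% to 42.9% in the butyrate and 28.7% to 36.8% in the RA library, so the butyrate value of the single thinning lies below them. That thinning also gave the other thinned values of single cells. Unthinned, 78.8% and 67.0% of the Hao2/Aqp4 cells held one. In B cells, which should lack the gene, 0.838% and 0.765% did unthinned, at median depths of 4528 and 4136 UMIs, and 0.482% and 0.463% thinned. For Gsdmc2 the thinned shares in the Hao2/Aqp4 gate were 33.6% and 21.3% and in B cells 0.178% and 0.154%. For Gsdmc3 they were 17.1% and 9.19%, against 0.0508% and 0.0386%. Thinning left out 0 butyrate and 617 RA cells, 1 of them in the Hao2/Aqp4 gate.

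Most of what the other gates held of the gasdermin C genes came from cells that also met the Hao2/Aqp4 threshold. This split was made after the values were seen. Aqp8 gate cells inside the Hao2/Aqp4 gate (37 butyrate and 71 RA cells) had 597 against 446 CPM of the summed genes in the butyrate and RA libraries, and those outside it (542 and 301 cells) had 37.0 against 42.9 CPM. In the Muc2 gate the values were 429.7 against 198 CPM inside and 37.6 against 31.1 CPM outside. In the dividing gate they were 434 against 196 CPM inside and 11.6 against 19.8 CPM outside. With the cells that meet both thresholds left out, the summed level of the Hao2/Aqp4 gate was 23.0 (19.4 to 27.4) times that of the Aqp8 gate in the butyrate and 12.4 (10.2 to 15.1) times in the RA library. With thresholds set per 10000 UMIs of the cell instead of on raw UMIs, the gates stood at 917 and 93.1 CPM in the butyrate and 694 and 166 CPM in the RA library.

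**Figure D2:**
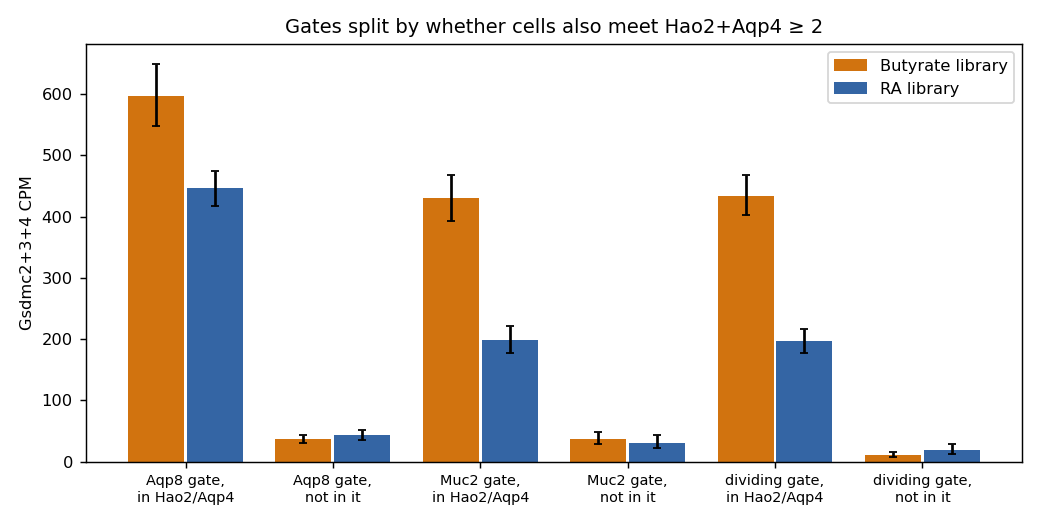
Summed level of Gsdmc2, Gsdmc3 and Gsdmc4 (vertical axis, CPM) in the Aqp8, Muc2 and dividing gates (horizontal axis), each split into cells that also meet the Hao2/Aqp4 threshold and cells that do not, for the butyrate (orange) and RA (blue) libraries, with exact 95% counting intervals. In the Aqp8 gate the bars are 597 against 446 CPM inside and 37.0 against 42.9 CPM outside.

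Within the Hao2/Aqp4 gate the genes were highest where both gate genes were detected. Cells with UMIs of Hao2 and Aqp4 (172 butyrate and 222 RA cells) had a summed level of 881 against 593 CPM, cells with Hao2 alone (32 and 23) 283 against 174 CPM, and cells with Aqp4 alone (13 and 28) 96.5 against 20.5 CPM. Single cells spread widely. The summed level had quartiles of 1.44, 4.96 and 10.6 UMIs per 10000 in the butyrate library, with a highest cell at 44.3, and of 0.119, 2.02 and 8.08 with a highest cell at 46.1 in the RA library. The libraries overlap over nearly the whole range, and all 3 quartiles are higher in the butyrate library. Cells without any UMI of the 3 genes numbered 28 in the butyrate (12.9%) and 67 in the RA library (24.5%). The 2 sets differed in depth, with medians of 10461.5 and 21047 UMIs, against 25804 and 24993 in the other cells of the gate. Their median mitochondrial shares were 17.1% and 12.0%, against 8.32% and 8.53%.

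The 3 gasdermin C genes overlapped in part in the cells that held them. All 3 were detected in 119 of 217 butyrate cells and 114 of 273 RA cells of the Hao2/Aqp4 gate. Gsdmc2 and Gsdmc4 were both present in 153 butyrate cells, with 17 that held Gsdmc2 alone and 18 that held Gsdmc4 alone. In the RA library 146 cells held both, 20 Gsdmc2 alone and 37 Gsdmc4 alone. Since deep cells show more genes, the cells were also counted at 2000 UMIs each: 39 butyrate and 33 RA cells then held both genes, 34 and 25 held Gsdmc2 without Gsdmc4, and 33 and 62 held Gsdmc4 without Gsdmc2. Gsdmc2 and Gsdmc3 were then both present in 15 and 11 cells, Gsdmc3 and Gsdmc4 in 15 and 16, and all 3 genes in 7 and 6. Spearman's rho over the thinned cells was 0.32 and 0.29 for Gsdmc2 and Gsdmc4, 0.08 and 0.16 for Gsdmc2 and Gsdmc3, and 0.10 and 0.21 for Gsdmc3 and Gsdmc4. With Lypd8 it was 0.10 and 0.04 for Gsdmc2, -0.14 and -0.04 for Gsdmc3, and 0.09 and 0.17 for Gsdmc4. At so few UMIs per cell these values are descriptions only.

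**Figure D3:**
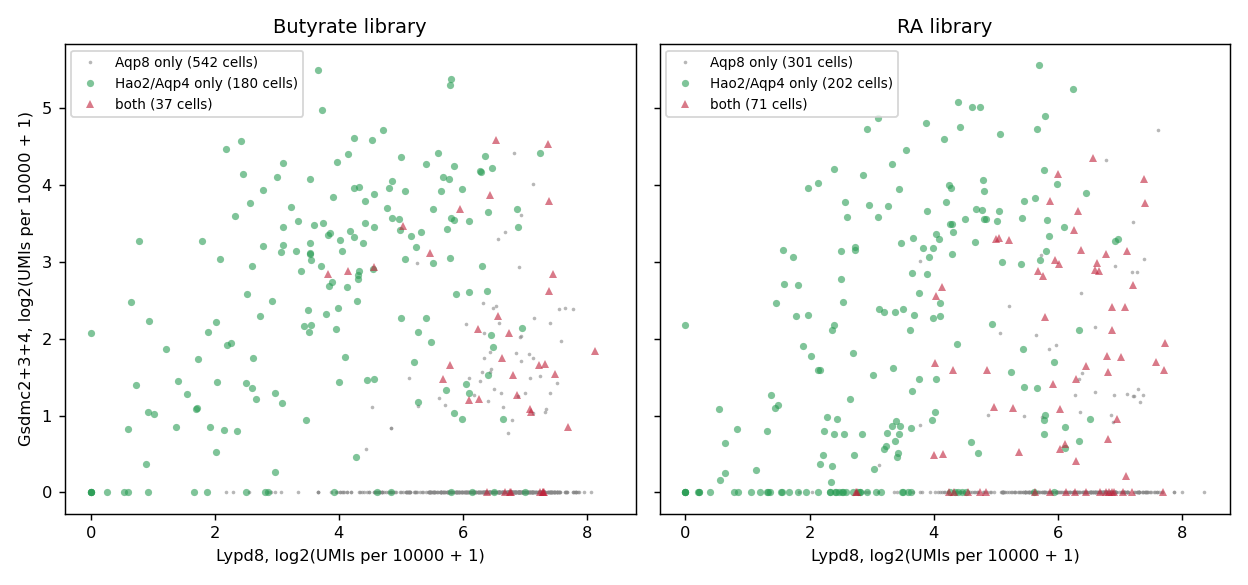
Each point is 1 cell of the Aqp8 gate alone (grey), the Hao2/Aqp4 gate alone (green) or both (red triangles), with Lypd8 on the horizontal and the sum of Gsdmc2, Gsdmc3 and Gsdmc4 on the vertical axis, both as log2 of UMIs per 10000 plus 1, for the butyrate (left) and RA (right) libraries. Cells of the Aqp8 gate alone lie to the right and mostly at 0 on the vertical axis, and cells of the Hao2/Aqp4 gate reach the highest gasdermin C values, up to 44.3 UMIs per 10000 in the butyrate and 46.1 in the RA library.

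Gsdmc2 took a larger part of the gasdermin C UMIs in the butyrate library, with intervals apart in 3 of the 4 gates, which share cells. In the Hao2/Aqp4 gate Gsdmc2 made up 36.0% (34.8% to 37.3%) in the butyrate and 29.6% (28.2% to 31.0%) in the RA library, Gsdmc4 53.0% (51.7% to 54.3%) in the butyrate and 59.4% (57.9% to 60.9%) in the RA library, and Gsdmc3 11.0% (10.2% to 11.8%) in the butyrate and 11.0% (10.1% to 12.0%) in the RA library. In the Aqp8 gate the share of Gsdmc2 was 38.6% (34.9% to 42.3%) in the butyrate and 26.2% (23.6% to 29.0%) in the RA library, and in the Muc2 gate 41.1% (37.1% to 45.2%) in the butyrate and 28.0% (23.5% to 32.8%) in the RA library. In the dividing gate the intervals overlapped, at 37.6% (34.0% to 41.2%) in the butyrate and 36.5% (32.1% to 41.2%) in the RA library. The share of Gsdmc4 was 52.3% (48.4% to 56.0%) in the butyrate and 62.6% (59.6% to 65.6%) in the RA library in the Aqp8 gate. In the Muc2 gate its intervals overlapped, at 47.8% (43.7% to 52.0%) in the butyrate and 54.7% (49.5% to 59.8%) in the RA library, as they did in the dividing gate, at 49.1% (45.4% to 52.8%) in the butyrate and 49.7% (44.9% to 54.4%) in the RA library. Because the gates share cells, these are not separate results. Cells that also met the Hao2/Aqp4 threshold held 548 of 687 butyrate and 948 of 1057 RA UMIs in the Aqp8 gate. In the Muc2 gate they held 522 of 579 and 338 of 375. Outside the Hao2/Aqp4 gate Gsdmc2 had 63 of 139 and 43 of 109 UMIs in Aqp8 cells. In Muc2 cells outside it Gsdmc2 had 19 of 57 and 19 of 37, a larger part in the RA library. Given the shared 3' stretches described above, a share per gene depends on how the counting resolved them.

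**Figure D4:**
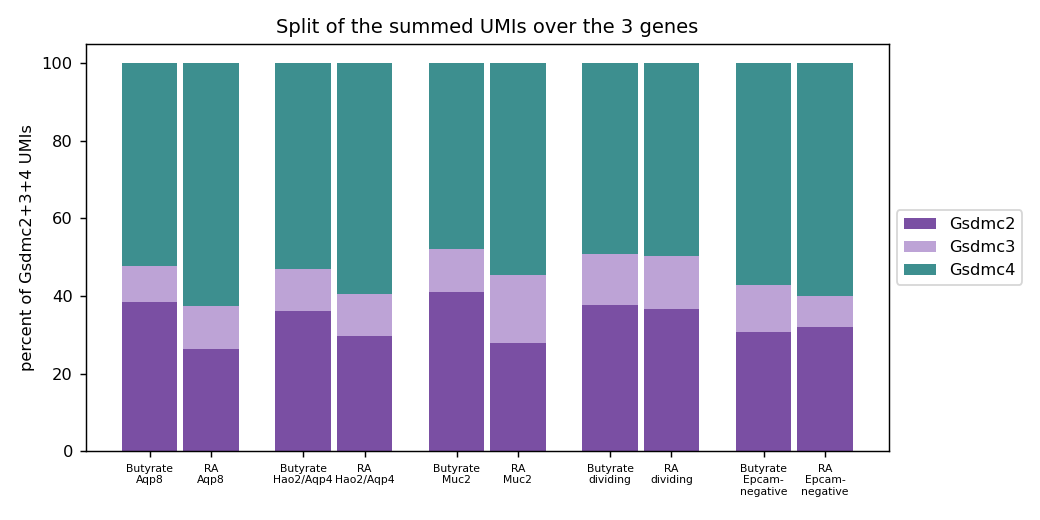
Percent of the summed Gsdmc2, Gsdmc3 and Gsdmc4 UMIs (vertical axis) that fell to each gene, in the 4 epithelial gates and in Epcam-negative cells (horizontal axis), butyrate left of RA in each pair. Gsdmc4 takes the largest part in every bar, 53.0% and 59.4% in the Hao2/Aqp4 gate.

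Lypd8 was far more abundant than the gasdermin C genes and peaked in other cells. In the Aqp8 gate it had 8774 CPM (8689 to 8859) in the butyrate library and 7671 CPM (7591 to 7751) in the RA library, and it was detected in 579 of 579 butyrate and 372 of 372 RA cells. Levels were 3237 against 3122 CPM in the Hao2/Aqp4 gate of the butyrate and RA libraries, 1574 against 1435 CPM in the Muc2 gate, 471 against 391 CPM in cells that met no threshold and 414 against 577 CPM in the dividing gate. The order of the first 3 was the same in both libraries, with intervals that did not overlap, while the last 2 changed places. With cells that meet both thresholds left out, the Aqp8 gate stood 3.73 (3.65 to 3.80) times above the Hao2/Aqp4 gate in the butyrate and 4.89 (4.78 to 5.01) times in the RA library. The median cell of the Aqp8 gate had 91.7 and 80.5 Lypd8 UMIs per 10000, and that of the Hao2/Aqp4 gate 19.1 and 15.4.

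Along Aqp8 both were higher in cells with a little Aqp8 than in cells with none, and parted above that. Epcam-positive cells were binned by Aqp8 UMIs per 10000 into 0, above 0 to 2, above 2 to 10, and above 10. Lypd8 had 904, 3091, 6123 and 10237 CPM in these bins of the butyrate library and 771, 2937, 4714 and 9733 CPM in those of the RA library, higher at each step. The summed gasdermin C genes had 265, 758, 221 and 35.0 CPM in the butyrate and 203, 508, 273 and 124 CPM in the RA library, highest in cells with a little Aqp8. The second bin was also the deepest, with median depths of 15275.5 and 17279 UMIs in the butyrate and RA libraries. Medians of the other bins ran over 5432 to 7986 and 5948.5 to 7808 UMIs. A single Aqp8 UMI falls in the second bin only in a deep cell, and the part of depth in this peak was not tested. The bin without Aqp8 also holds the Epcam-positive barcodes with UMIs of other lineages. In the bin with most Aqp8 the gasdermin C level was lower in the butyrate than in the RA library.

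**Figure D5:**
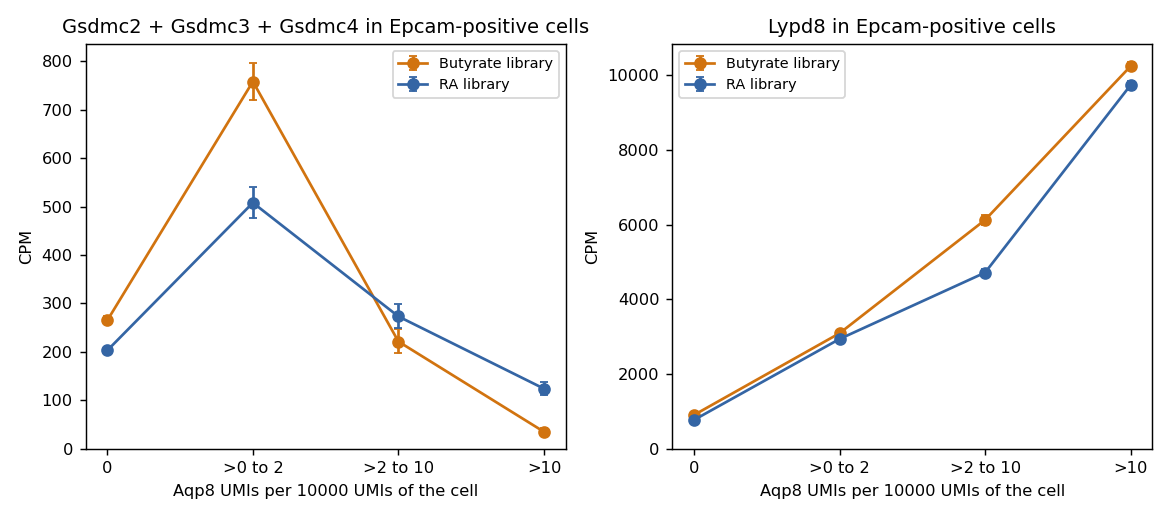
Summed Gsdmc2, Gsdmc3 and Gsdmc4 (left) and Lypd8 (right) in CPM (vertical axes, from 0) over bins of Aqp8 UMIs per 10000 (horizontal axes) in Epcam-positive cells of the butyrate (orange) and RA (blue) libraries, with exact 95% counting intervals. Lypd8 reaches 10237 and 9733 CPM in the highest bin. The gasdermin C genes peak at 758 and 508 CPM in the second, which has the highest median depth.

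In cells without Epcam the members were low in every cell type. Lypd8 had 34.3 against 40.9 CPM in B cells of the butyrate and RA libraries, 31.8 against 30.7 CPM in T cells and 27.6 against 24.6 CPM in fibroblasts, and 15.8% and 15.2% of B cells held a UMI (7.29% and 7.69% thinned). The summed gasdermin C genes had 2.66 against 2.74 CPM in B cells, 1.36 against 1.32 CPM in T cells and 2.22 against 1.76 CPM in fibroblasts. Among the UMIs of Gsdmc2 to Gsdmc4 and Lypd8 together, the gasdermin C genes made up 7.09% (5.79% to 8.57%) in the butyrate and 5.97% (4.72% to 7.42%) in the RA library in Epcam-negative cells and 9.01% (8.79% to 9.23%) in the butyrate and 8.26% (8.03% to 8.50%) in the RA library in Epcam-positive cells. The levels in B cells, T cells and fibroblasts are the background against which the gates are to be read. The lowest gate level of Lypd8 was that of the dividing gate, and in dividing cells that met no other threshold it was 64.2 against 50.7 CPM, near the background. Many barcodes of the dividing gate held UMIs of other lineages, as given above. Without such barcodes the whole dividing gate, 40 butyrate and 60 RA cells, had 717 against 695 CPM of Lypd8. Cells that also met other thresholds were kept in that value. In other Epcam-negative cells Lypd8 had 40.0 against 65.7 CPM.

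The comparison of the mice asks whether these genes differed between the butyrate-fed mouse and the arthritic mouse on chow. In the Hao2/Aqp4 gate all 3 gasdermin C genes were higher in the butyrate library. The ratio of butyrate over RA was 1.95 (1.82 to 2.10) for Gsdmc2, 1.60 (1.42 to 1.81) for Gsdmc3 and 1.43 (1.36 to 1.51) for Gsdmc4, with exact conditional binomial intervals. The ratios lay between 1.56 and 2.36 for Gsdmc2, 1.34 and 1.95 for Gsdmc3, and 0.956 and 1.67 for Gsdmc4 under 12 other settings. The single value below 1 was that of Gsdmc4 with each cell thinned to 2000 UMIs, which depends on the random draw. Over 20 such draws, added after the values were seen, the Gsdmc4 ratio ran over 0.933 to 1.45 and lay above 1 in 17, that of Gsdmc3 lay above 1 in 19 and that of Gsdmc2 in 20. No member reached 2-fold in this gate, a size that 0.774% of the 10979 genes with at least 50 UMIs reached upward in this gate and 3.23% downward. The 10 cells with most Gsdmc4 held 29.9% of its UMIs in the butyrate and 24.0% in the RA library, and those with most Gsdmc2 29.3% and 29.9%. The make-up of the gate moved too. The lower colonocyte markers summed to 3166 and 2351 CPM in the butyrate and RA libraries, and the enteroendocrine markers to 0.580 and 96.7 CPM. The lower colonocyte sum includes the gate genes Hao2 and Aqp4. The goblet markers summed to 5679.8 and 3454 CPM, stem cell markers to 69.9 and 136 CPM and fibroblast markers to 32.5 and 187 CPM, and the part of these markers in the result was not tested.

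Other gates did not show the same for every gene. In the Aqp8 gate the ratio was 0.541 (0.474 to 0.616) for Gsdmc4 and 0.533 (0.386 to 0.729) for Gsdmc3, lower in the butyrate library, and 0.954 (0.803 to 1.13) for Gsdmc2. There 2.01% of genes were at least 2-fold higher and 5.54% at most 0.5. Cells that also met the Hao2/Aqp4 threshold were 37 of 579 in the butyrate and 71 of 372 in the RA library. Without them the Gsdmc4 ratio was 0.726 (0.492 to 1.07), the Gsdmc3 ratio 1.01 (0.462 to 2.31) and the summed ratio 0.862 (0.666 to 1.12), and among the cells that met both thresholds the summed ratio was 1.34 (1.20 to 1.49). More Aqp8-positive barcodes lay above the mitochondrial limit than below it. With no such limit the Aqp8 gate, 1534 butyrate and 1419 RA cells, had 93.7 against 112.8 CPM of the summed genes. With the limit it had 147 against 227 CPM. In the Muc2 gate Gsdmc2 had a ratio of 2.40 (1.90 to 3.05), where 1.11% of genes were at least 2-fold higher and 2.51% at most 0.5. It was the single member ratio past 2-fold in any of the 4 gates. Gsdmc3 and Gsdmc4 had ratios of 1.04 (0.727 to 1.50) and 1.43 (1.19 to 1.72) in the Muc2 gate. In the dividing gate the ratios were 1.42 (1.16 to 1.73) for Gsdmc2, 1.33 (0.955 to 1.86) for Gsdmc3 and 1.36 (1.15 to 1.62) for Gsdmc4. None there was past 2-fold, and 4.66% of genes were at least 2-fold higher and 3.26% at most 0.5. Dividing cells outside the Hao2/Aqp4 gate had a summed ratio of 0.586 (0.335 to 1.03). The ratio of Gsdmc2 stood at 0.785 (0.393 to 1.57) in the Muc2 cells outside the Hao2/Aqp4 gate. Over all Epcam-positive cells the ratios were 1.45 (1.35 to 1.55) for Gsdmc2, 1.25 (1.11 to 1.41) for Gsdmc3 and 1.07 (1.02 to 1.13) for Gsdmc4, none past 2-fold, where 1.15% of genes were at least 2-fold higher and 4.46% at most 0.5. These values changed when each cell was given the same weight, and the cause was not tested. Over 20 thinnings the ratio lay above 1 in 10 for Gsdmc2, in 9 for Gsdmc3 and in 0 for Gsdmc4. As a mean over cells the ratio of Gsdmc4 was 0.785.

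Lypd8 ratios lay close to 1 in 3 of the 4 gates taken whole. The ratio was 1.14 (1.13 to 1.16) in the Aqp8 gate, 1.04 (1.02 to 1.06) in the Hao2/Aqp4 gate, 1.10 (1.05 to 1.15) in the Muc2 gate, 0.717 (0.672 to 0.766) in the dividing gate and 1.10 (1.08 to 1.11) over all Epcam-positive cells. The narrow intervals reflect the number of UMIs and not variation between mice. In the Aqp8 gate the ratio was 0.848 with a mitochondrial limit of 10%. In the dividing gate it was 1.03 once barcodes with UMIs of other lineages were left out. Split by the Aqp8 threshold, the Hao2/Aqp4 gate had Lypd8 ratios above that of the whole gate. The ratio was 1.21 (1.17 to 1.24) in cells that also met the Aqp8 threshold and 1.47 (1.43 to 1.51) in the others. The cells that met both were 37 of 217 in the butyrate and 71 of 273 in the RA library.

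Other genes of the same pathways were described from lists. Of the other gasdermins, 2 of 6 in the files had at least 50 UMIs in Epcam-positive cells. Gsdmd, the gasdermin cut by inflammatory caspases, had 31.3 against 32.5 CPM, a ratio of 0.962 (0.862 to 1.07), and Gsdme, which caspase-3 cuts, had 17.4 against 14.7 CPM, a ratio of 1.18 (1.01 to 1.39). Gsdmd was highest in the Aqp8 gate, at 82.3 against 78.2 CPM, and stood at 30.7 against 30.2 CPM in the Hao2/Aqp4 gate, the reverse of the order of the gasdermin C genes. Among proteases and inflammasome genes 14 of 20 measured members were higher and 6 lower in the butyrate library, with a median log2 ratio of 0.10, beside -0.01 over all 14115 genes, of which 49.1% were higher. The adaptor Pycard had 314 against 343 CPM, a ratio of 0.916 (0.886 to 0.948), and the cytokine gene Il18 71.8 against 106 CPM, a ratio of 0.678 (0.634 to 0.724). The farthest, Gzma, a granzyme of T and NK cells, had 16.6 against 74.7 CPM, a ratio of 0.223, and its level in Epcam-negative cells was 26.3 against 95.4 CPM. Casp8, named after its values were seen, had 97.4 against 77.6 CPM, a ratio of 1.26 (1.13 to 1.40) in the Hao2/Aqp4 gate.

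Genes of the epithelial response to type 2 cytokines were mostly higher in the butyrate library. Of 16 measured members 13 were higher and 3 lower in Epcam-positive cells, with a median log2 ratio of 0.65, and 5 were at least 2-fold higher, beside 1.15% of all genes. In the Hao2/Aqp4 gate 11 of 15 were higher and 6 at least 2-fold, with a median of 0.63. Of all genes there 45.8% were higher and 0.774% at least 2-fold, with a median of -0.03. The bactericidal Retnlb had 978 against 125 CPM, a ratio of 7.80 (7.31 to 8.34) in that gate, the ribonuclease Ang4 1151 against 181 CPM, a ratio of 6.36 (6.02 to 6.73) and the mucus protease Clca1 1171 against 219.5 CPM, a ratio of 5.33 (5.07 to 5.61). The lectin Itln1 had a ratio of 3.51 and the pentraxin Mptx1 one of 1.39. These are goblet and secretory cell products, at 8283 against 1601 CPM of Retnlb in the Muc2 gate, and the goblet markers moved with them in the Hao2/Aqp4 gate as given above. The goblet markers include Clca1 and Fcgbp, which are also in the type 2 list, so their sum is not separate from it. The small proline-rich gene Sprr2a3, named after its values were seen, had 64.3 against 22.1 CPM, a ratio of 2.92 (2.32 to 3.68) in the Aqp8 gate. The receptor and signal genes, named after their values were seen, had ratios of 1.04 (Il4ra), 1.15 (Il13ra1) and 0.974 (Stat6) in the Hao2/Aqp4 gate. The list also holds the tuft cell genes Dclk1, Pou2f3 and Il25. A set of tuft cell markers that includes them summed to 114 against 151 CPM in Epcam-positive cells, lower in the butyrate library. Among the gates this sum was higher in the butyrate library only in the dividing gate, at 26.6 against 19.4 CPM.

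Relatives of Lypd8 and other genes that keep bacteria from the epithelium were mixed. Of the Ly6 and LYPD relatives 6 of 11 measured members were higher and 5 lower in Epcam-positive cells, with a median log2 ratio of 0.17, and none was past 2-fold either way. The surface protein genes Ly6e and Ly6a had ratios of 1.24 and 1.19. Ly6d had one of 1.52, but its level was higher in Epcam-negative cells, at 638 against 394 CPM. Of the genes for segregation of bacteria 8 of 15 were higher and 7 lower, with a median of 0.01. There 2 were at least 2-fold higher, beside 1.15% of all genes, and 4 at most 0.5, beside 4.46%. Zg16, a lectin-like goblet protein that clumps bacteria, had 893 against 913 CPM, a ratio of 0.978 (0.958 to 0.998), lower in the butyrate library, where Lypd8 was higher. The bactericidal lectin Reg3b had 28.0 against 2126 CPM, a ratio of 0.0132 (0.0114 to 0.0152) in the Hao2/Aqp4 gate, where the gasdermin C genes were higher in the butyrate library. In that gate 4 of 13 measured genes of the segregation list were higher and 9 lower, with a median of -0.35. There 1 was at least 2-fold higher and 4 at most 0.5, beside 0.774% and 3.23% of all genes. In the Aqp8 gate 8 of 14 were higher, in the Muc2 gate 5 of 11 and in the dividing gate 2 of 11.

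Genes with the most similar pattern were sought over 18 points, 9 disjoint cell classes in each library, by Pearson's r of log2(CPM + 10) among 12866 genes. The points share 2 libraries and the same thresholds, so r is a description with no p. For Gsdmc2 the 5 highest were Akr1c19 (0.99), Mab21l4 (0.97), Cwh43 (0.97), Thap4 (0.97) and Paqr5 (0.97). For Gsdmc3 they were Mab21l4 (0.98), Cwh43 (0.98), Cyp2d26 (0.98), Gstm6 (0.98) and Gstm3 (0.97), and for Gsdmc4 Mab21l4 (0.98), Akr1c19 (0.98), Thap4 (0.97), Cwh43 (0.97) and Sowaha (0.96). Mab21l4 and Cwh43 stood in all 3 of these sets. Mab21l4 was low, at 5.07 against 4.71 CPM in the Hao2/Aqp4 gate, below the 10 CPM added before the logarithm. Cyp2d26, Gstm6 and Sowaha were also below 10 CPM there, so r for these genes rests on few UMIs. Akr1c19, an aldo-keto reductase gene, had 119.8 against 80.0 CPM in the Hao2/Aqp4 gate and 31.9 against 30.4 CPM in the Aqp8 gate. Among themselves the gasdermin C genes had r of 0.98 to 0.99, and with Lypd8 0.56 to 0.69. For Lypd8 the 5 were Ms4a8a (0.99), Cdhr5 (0.99), Atp10b (0.99), Misp (0.99) and Gpa33 (0.99). Cdhr5, a brush border adhesion protein, had 171 against 149 CPM in the Hao2/Aqp4 gate and 567 against 442 CPM in the Aqp8 gate, and Gpa33, the A33 antigen of intestinal epithelium, had 222 against 198 CPM in the Hao2/Aqp4 gate and 327 against 243 CPM in the Aqp8 gate.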

How the data were processed

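The authors deposited 1 count table for each library, with genes as rows, cell barcodes as columns and whole UMIs as values that were not normalized. Per the file headers, the count tables were written by Cell Ranger 7.1.0. The submitters' processing notes name Cell Ranger 6.0.1, Seurat in versions 4.0.3 and 4.0.4, and mm10. The treatment of intronic reads is not given in the sources used here. Gene positions come from GENCODE M21 (GRCm38, equal to mm10). The butyrate library held 67894477 and the RA library 61912439 UMIs, and 27 barcode sequences occurred in both.

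UMIs were summed per cell class and library. Intervals of levels are exact Poisson, those of shares exact Clopper-Pearson and those of ratios exact conditional binomial, at 95%, and cover counting error only. The limit beside a count of 0 is 3 counts of the total. B cells were Epcam-negative barcodes with at least 2 UMIs of Cd79a, T cells others with at least 1 of Cd3e, and fibroblasts others with at least 5 of Col3a1. Median log2 ratios of lists add 0.5 to each sum. Doublets were kept in the values of the report. Scrublet (scanpy 1.11.5) marked 2 butyrate and 0 RA barcodes, too few to be of use, so the highest scores were left out as an alternative. Python packages were numpy 2.4.6, scipy 1.17.1 and biopython 1.88. The ratio intervals, the thinning and the likeness measure were tested on simulated data. Alternatives were a mitochondrial limit of 10% or none, a higher UMI floor, at least 2 Epcam UMIs, means over cells, thinning, leaving out barcodes of other lineages, of high doublet score or with most UMIs of the gene, non-mitochondrial totals, disjoint gates, and thresholds per 10000 UMIs. The members and lists were chosen with earlier results of these data known. Besides the members, genes were named as the most abundant or farthest of each list, or as most alike in pattern, and others are said to have been named after their values were seen.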

Additional observations from a re-analysis of the deposited data

Results flagged for a closer look

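Barcodes over the mitochondrial limit entered no comparison, yet they hold many UMIs of the members. Above the limit of 25% lay 1238 butyrate and 1494 RA barcodes with an Epcam UMI, of which 955 and 1047 met the Aqp8 threshold and 60 and 63 the Hao2/Aqp4 threshold. More Aqp8-positive barcodes therefore lay above the limit than below it in both libraries. Lypd8 stood at 6837 CPM (6773 to 6901) in those of the butyrate library and 5916 CPM (5866 to 5966) in those of the RA library. Gsdmc2, Gsdmc3 and Gsdmc4 summed to 94.4 CPM (87.0 to 102) and 48.2 CPM (43.8 to 53.0). Gsdmc had 0 UMIs there in the butyrate and 1 in the RA library. The levels of Lypd8 and of the 3 summed genes exceed the limit that a count of 0 would allow.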

How the results depend on the processing

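Over all Epcam-positive cells the log2 ratios of butyrate over RA were 0.54 for Gsdmc2, 0.32 for Gsdmc3, 0.10 for Gsdmc4 and 0.13 for Lypd8, and several moved by more than their counting interval. With a mitochondrial limit of 10% they came to 0.92 (Gsdmc2), 0.55 (Gsdmc3), 0.45 (Gsdmc4) and 0.11 (Lypd8). Without a limit they came to 0.73 (Gsdmc2), 0.52 (Gsdmc3), 0.26 (Gsdmc4) and 0.0384 (Lypd8). With at least 2 Epcam UMIs they came to 0.21 (Gsdmc4) and 0.24 (Lypd8). As means over cells they came to 0.17 (Gsdmc2), 0.11 (Gsdmc3), -0.35 (Gsdmc4) and 0.37 (Lypd8). With cells thinned to 2000 UMIs they came to 0.22 (Gsdmc2), -0.69 (Gsdmc4) and 0.37 (Lypd8). Without barcodes with UMIs of other lineages they came to 0.68 (Gsdmc2), 0.22 (Gsdmc4) and 0.36 (Lypd8). Without the barcodes of highest doublet score they came to 0.17 (Lypd8). The sign of Gsdmc4 turned with thinning and as a mean over cells, and those of Gsdmc2 and Gsdmc3 turned in some thinnings, as given below. The cause was not tested. In the single gates 119 values stayed within the counting interval, 63 moved past it and 10 turned the sign of a ratio whose interval had excluded 1: Lypd8 in the Aqp8 gate with a mitochondrial limit of 10% (-0.24), Lypd8 in the Muc2 gate without a limit (-0.16), Gsdmc4 in the Hao2/Aqp4 gate with cells thinned to 2000 UMIs (-0.0643), Gsdmc4 in the Muc2 gate with cells thinned to 2000 UMIs (-0.65), Gsdmc2 in the dividing gate with cells thinned to 2000 UMIs (-0.91), Gsdmc4 in the dividing gate with cells thinned to 2000 UMIs (-1.13), Lypd8 in the dividing gate without barcodes with UMIs of other lineages (0.0458), Gsdmc3 in the Aqp8 gate with cells that meet exactly 1 threshold (0.22), Lypd8 in the dividing gate with cells that meet exactly 1 threshold (0.34), Lypd8 in the Hao2/Aqp4 gate with thresholds per 10000 UMIs (-0.19). Of the values that stayed or moved, 12 also turned sign, from ratios whose interval held 1. They were 5 of Gsdmc2 in the Aqp8 gate, 4 of Gsdmc3 in the Muc2 gate and 3 of Gsdmc3 in the dividing gate, down to -0.77. Thinning rests on a random draw, and the Epcam-positive value of Gsdmc4 above lies outside the range of further draws. Over 20 draws, added after the values were seen, the log2 ratio in the Hao2/Aqp4 gate ran over 0.33 to 1.23 with a mean of 0.62 for Gsdmc2, -0.19 to 1.44 with a mean of 0.44 for Gsdmc3 and -0.10 to 0.53 with a mean of 0.20 for Gsdmc4. Over all Epcam-positive cells it ran over -0.30 to 0.30 with a mean of 0.01 for Gsdmc2, -0.27 to 0.60 with a mean of 0.04 for Gsdmc3 and -0.61 to -0.12 with a mean of -0.35 for Gsdmc4. The other alternatives left the 3 genes higher in the butyrate library in the Hao2/Aqp4 gate. No paired analysis was possible because each group has 1 library, and no library could be left out for the same reason. Depth limits Gsdmc3, for example, with 64 and 65 UMIs in the Muc2 gate, and Gsdmc gave no ratio.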

Other observations

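Some epithelial cells met none of the thresholds and still held the members. Without barcodes that had at least 2 UMIs of Cd79a, Cd3e, Ptprc and Col3a1 together, 136 butyrate and 176 RA Epcam-positive cells met no threshold. Lypd8 had 2288 CPM in those of the butyrate and 1310.4 CPM in those of the RA library, and Gsdmc2, Gsdmc3 and Gsdmc4 together 94.2 CPM (72 UMIs) and 44.7 CPM (38 UMIs). Their median depths were 4324 and 2752 UMIs, below those of the other Epcam-positive classes in the same comparison.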
